A study of Mus musculus with 3 samples.

Results

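A set of 639 promoters carried H3K4me3 in both spermatocyte libraries of the series but had a low count in elongating spermatids. They were selected on raw counts: at least 83 in leptotene/zygotene spermatocytes (LZ), at least 136 in pachytene/diplotene spermatocytes (PD) and at most 600 in elongating spermatids (ES). The set makes up 5.74% of the 11140 promoters in the deposited table and 17.0% of the 3756 that meet the LZ and PD minimum, called marked promoters here. The other 3117 marked promoters, which differ by the rule only in an ES count above 600, served for comparison. All libraries came from testes of adult C57BL/6J mice with no stated mutation or treatment, and chromatin cut with micrococcal nuclease was immunoprecipitated with the same H3K4me3 antibody. The labels do not say how the stages were separated, how pure they were or how many animals were used.

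H3K4me3, trimethylation of lysine 4 on histone H3, is found around the start sites of active and poised genes. In meiotic prophase it is also placed by PRDM9 at recombination hotspots, most of which lie away from promoters. LZ cells are pairing their chromosomes, PD cells have fully paired and then separating chromosomes, and ES cells are haploid and exchange most histones for protamines. H3K4me3 kept on remaining nucleosomes at promoters is a known feature of sperm chromatin.

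Each stage had 1 library, so no difference below has a replicate check and none was tested. The counts over all listed promoters summed to between 1654906 in LZ and 17989325 in ES, with 4826890 in PD. Levels are given in CPM, that is per 1000000 counts summed over the listed promoters of a library. Since LZ, PD and ES counts all chose the set, its levels and ratios are a description. The promoters carry numbers of assembled loci, 0 of the 639 matched the RefSeq gene or promoter tables (GRCm38.p6), and their genes, positions and sequences are therefore not analysed here. Marker genes of the 3 cell types could not be looked up for the same reason.

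The limits cut through continuous distributions. The ES limit of 600 counts, or 33.4 CPM, lay at the 36.0th percentile of all listed promoters in ES. The highest promoter inside it had LZ, PD and ES counts of 322, 457 and 600, and the nearest marked promoter outside had 265, 1742 and 602. At the LZ limit, a promoter inside had 83, 409 and 592 counts in the same order, while one outside had 82, 695 and 543. At the PD limit, a promoter inside had 145, 136 and 410 counts, and one outside had 254, 135 and 440. Exact 95% Poisson intervals of the count lay inside all 3 limits for 436 of the 639 promoters (68.2%). The interval crossed the ES limit at 121, the LZ limit at 60 and the PD limit at 34. A further 239 promoters outside the set had intervals that reached into all 3 limits, so its edge is set partly by counting error.

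By the rule, the 639 promoters ranked above the middle of the table in spermatocytes and below it in spermatids. The LZ minimum lay above 55.4% of all listed promoters and the PD minimum above 58.7%. In LZ their counts ran from 83 to 1269 with a median of 215, or 130 CPM. In PD they ran from 136 to 2822 with a median of 476, or 98.6 CPM. In ES they ran from 77 to 600 with a median of 462, or 25.7 CPM. The median promoter of the set stood at percentile 72.5 of LZ, 72.2 of PD and 28.2 of ES. Together the set held 9.47% of the LZ counts, 8.04% of the PD counts and 1.55% of the ES counts. It varied most in PD, where the 90th percentile was 6.95 times the 10th, against 4.05 times in LZ and 2.15 times in ES, where the limit caps it. The other marked promoters likewise varied most in PD, at 8.75 times, against 3.96 times in LZ and 5.13 times in ES.

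The set was also the less strongly marked side of the marked promoters in spermatocytes. Both sides passed the same LZ and PD minimum, and since the rule used these counts, the difference is a description. The other marked promoters had LZ, PD and ES medians of 200.01, 243 and 67.2 CPM. Their median was thus 1.54 times that of the 639 promoters in LZ and 2.47 times in PD. The ES medians differed by 2.62 times, which the limit enforces. The ranges of the 2 sets overlapped widely in LZ and PD, and from the 10th to the 90th percentile PD ran from 37.3 to 259 CPM in the set and from 52.3 to 458 CPM in the other marked promoters.

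**Figure D1:**
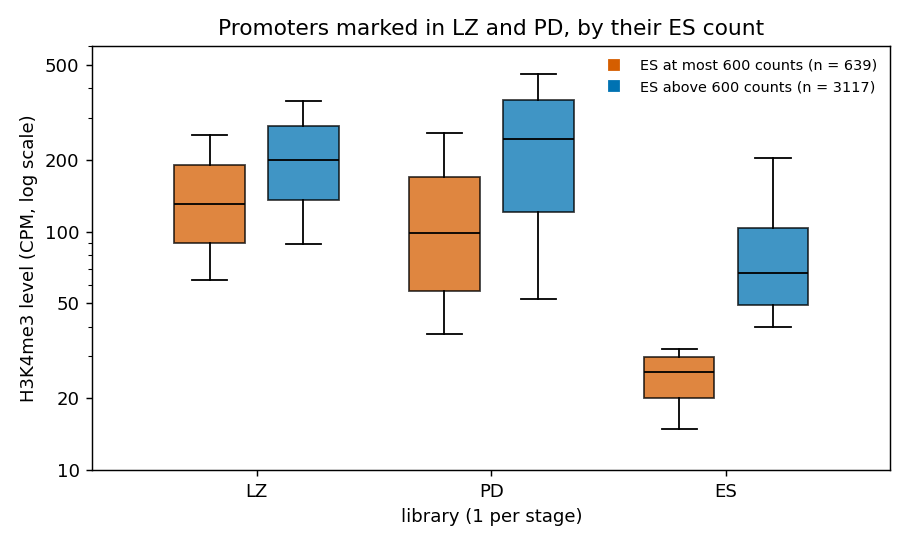
H3K4me3 level in CPM on a log scale for the 639 promoters (orange) and the other 3117 marked promoters (blue) in the 3 libraries. Boxes span the 25th to 75th percentiles with the median as a line, and whiskers reach the 10th and 90th percentiles over promoters. The orange boxes lie lower in all 3 libraries, with medians of 98.6 against 243 CPM in PD, and the ES separation is set by the rule.

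Weak marking in ES was a matter of degree. Of the 639 promoters, 232 (36.3%) had more than 500 counts in ES, 28 had at most 200 and 4 had at most 100. The lowest 10% of all listed promoters in ES, those with at most 165 counts, held 19 of them (2.97%). With the 10% of promoters of lowest mean level taken as background, the ES background was 8.39 CPM, and 13 of the 639 (2.03%) were at or below it. The mean level includes ES, so this background is low in ES by its choice. Retained marking in the set cannot be read from it. All 639 promoters lay at or below 695 ES counts, the median of promoters under both the LZ and the PD minimum. The ES limit of the rule enforces this.

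Low ES counts were far less frequent among marked promoters than among the 5331 promoters below both the LZ and the PD minimum, called unmarked. The unmarked class also reached high, with 10th and 90th percentiles of 110 and 5096 ES counts. Of the 1114 promoters in the top 10% of ES, 245 were marked. An ES count of at most 200 was found at 0.745% of marked promoters (Clopper-Pearson 95% interval 0.496 to 1.08) and at 20.3% of unmarked ones (19.2 to 21.4). The shares were 15.2% of the 1211 promoters above the minimum in LZ only (13.2 to 17.3) and 10.9% of the 842 above it in PD only (8.90 to 13.2). At the 600-count limit the shares came closer, at 17.0% of marked, 38.8% of LZ-only, 51.7% of PD-only and 46.3% of unmarked promoters. Within the 4013 promoters at or under this limit, the 639 had a median of 462 ES counts, against 230 for the 2469 unmarked, 269 for the 470 LZ-only and 313 for the 435 PD-only promoters. The intervals treat promoters as independent and cover counting of promoters in these libraries only.

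**Figure D2:**
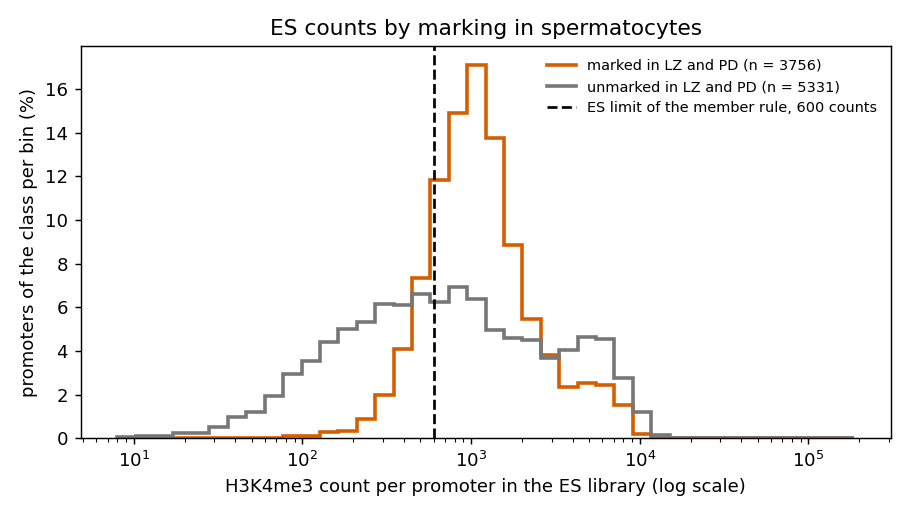
Distribution of the ES count (log scale) as the percentage of each class per bin, for marked (orange, n = 3756) and unmarked (grey, n = 5331) promoters, with the 600-count limit as a dashed line. The 639 promoters are the orange part left of the line, a continuous shoulder of the main peak. The grey class extends further down, with 20.3% of its promoters at 200 counts or fewer. It also has the larger shares in the bins from 3329 to 19330 counts.

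Between PD and ES, 538 of the 639 promoters were at least 2-fold lower in ES, 0 were 2-fold higher and 101 lay within 2-fold. A change of at least 2-fold means a CPM ratio of 2 after adding 1 count in proportion to library size, with at least 20 counts in the larger of the 2 counts. By the same rule 29.7% of all listed promoters were lower in ES and 52.2% were higher, and as the rule for the set used both libraries, nothing is read from this contrast. The median log2 ratio of ES to PD was -2.17, a 4.49-fold lower level, against -1.71 for the other marked promoters and 1.25 for all listed promoters. The ratios within the set ran from -5.13 to 0.20. In 2 promoters the ES level was above the PD level, because 600 counts in ES is a higher CPM than 136 counts in PD (28.2 CPM). In 506 promoters the exact 95% interval of the ES to PD ratio, which covers counting error only, lay under 0.5. The same interval count was not made over all listed promoters, so it has no share to stand beside.

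Between LZ and ES, the rule itself put every promoter of the set lower in ES. The LZ minimum was 50.2 CPM and the ES maximum 33.4 CPM. In 624 promoters the ES level was at least 2-fold lower, in 0 it was 2-fold higher and 15 lay within 2-fold, beside 34.5% of all listed promoters lower and 40.2% higher. The median log2 ratio of ES to LZ was -2.48, or 5.59-fold lower, against -1.48 for the other marked promoters. Both contrasts together gave 531 promoters (83.1%) at least 2-fold lower in ES than in LZ and in PD, beside 21.9% of all listed promoters. The libraries were also scaled with TMM and median-of-ratios factors, which take most promoters as unchanged, with quantile normalization, and after subtracting each library's background. Under all of these 5 scalings, library totals included, 512 of the 639 (80.1%) met both conditions, as did 1509 of the other 3117 marked promoters (48.4%). The share of all listed promoters under all 5 was not computed, and the 21.9% above is for library totals alone. Marked promoters were chosen for high LZ and PD counts, which favours a lower ES level, so nothing is read from these shares. By its rule the set is the part of the marked promoters with the lowest ES counts.

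Between LZ and PD, where the rule sets only a minimum in each library, the set was mixed, and the balance depended on the scaling. With library totals, at least 2-fold lower in PD were 185 promoters (29.0%), 55 (8.61%) were at least 2-fold higher and 399 lay within 2-fold. Of all listed promoters with enough counts, 40.9% were lower and 16.1% higher, so neither share stood above that of the table. Among the other marked promoters, on which the same LZ and PD minimum acts, 16.7% were lower and 14.5% higher. On the log2 scale the PD to LZ ratio had a median of -0.36 in the set and 0.19 in the other marked promoters. The balance of calls turned with TMM factors, at 67 lower and 175 higher, and with median-of-ratios size factors, at 28 lower and 287 higher. The median log2 ratio of all listed promoters moved too, from -0.99 with library totals to -0.29 and 0.15. The turn was therefore not particular to the set, and no share of all listed promoters stands beside these counts. The sign of the median in the set also changed, with 0.36 for TMM factors, 0.82 for median-of-ratios size factors and 0.01 for quantile normalization, and -0.32 after background subtraction. The set's median lay below that of the other marked promoters by -0.55 on the log2 scale with library totals, TMM and median-of-ratios factors alike, by -0.54 after background subtraction, and by -0.05 with quantile normalization. The last method gives the 3 libraries the same distribution, and there the difference between the sets nearly vanished.

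**Figure D3:**
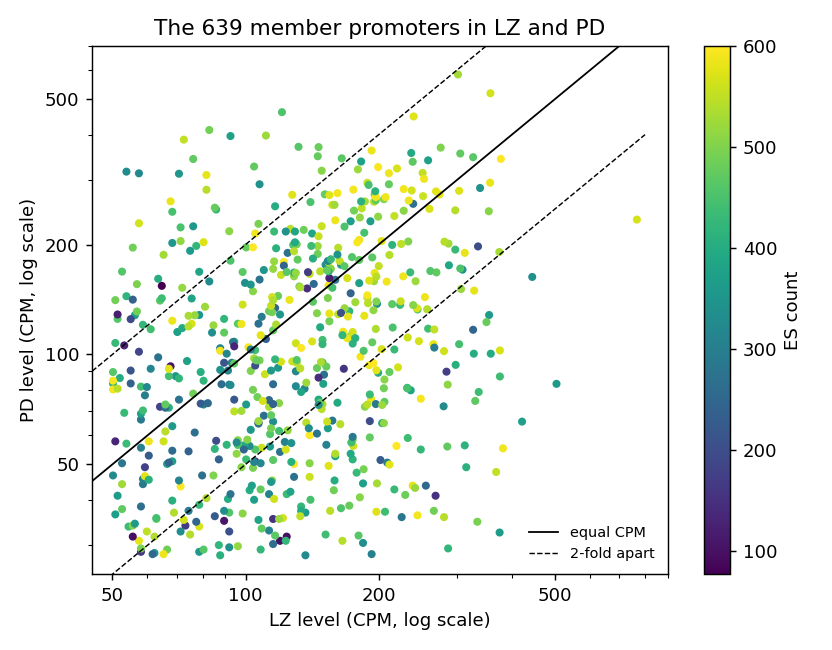
LZ against PD level in CPM (both axes log scale) for each of the 639 promoters, coloured by its ES count. The solid line marks equal levels and the dashed lines 2-fold differences; 399 points lie between the dashed lines, 185 below and 55 above, and dark points (low ES counts) occur across the cloud.

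Inside the set, bins of the ES count had overlapping intervals of the PD to LZ ratio. At ES counts of at most 200 its log2 median was -0.64 (order-statistic 95% interval -1.04 to 0.17, 28 promoters). At 401 to 500 counts it was -0.40 (-0.66 to 0.00, 194 promoters), and at 501 to 600 counts it was -0.32 (-0.47 to -0.14, 232 promoters). Just past the limit, at 601 to 700 counts, it was -0.14 (-0.24 to -0.03, 278 promoters), and it was 0.27 (0.23 to 0.32, 1193 promoters) at 901 to 1500 counts. The spermatocyte levels rose along with the ES count over the same bins. The median PD level went from 68.8 CPM at ES counts of at most 200 to 129 CPM at 501 to 600, and to 270.4 CPM at 901 to 1500. The median LZ level went from 91.8 to 158 and to 205 CPM. In the remaining bins the log2 median of the PD to LZ ratio was -0.37 at 201 to 300, -0.41 at 301 to 400 and 0.08 at 701 to 900 counts. The ratio thus changed little from 201 to 600 counts and was higher past the limit. Its intervals at 501 to 600 and at 601 to 700 counts overlapped.

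By their course over the 3 libraries, the 639 promoters fell into 5 shapes. The most frequent, with 376 promoters (58.8%, Clopper-Pearson 95% interval 54.9 to 62.7), kept its level within 2-fold from LZ to PD and was lower in ES. Its LZ, PD and ES medians were 131, 130 and 26.0 CPM, and 51.7% of the other marked promoters had this shape too. A stepwise fall of at least 2-fold from LZ to PD and again from PD to ES was seen at 107 promoters (16.7%, 13.9 to 19.9). Their LZ, PD and ES medians were 195, 65.5 and 22.1 CPM. The same stepwise course was found at 48 of the other marked promoters (1.54%), where the ES limit that helps produce it does not apply.

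The 3 remaining shapes were smaller. A fall from LZ to PD with an ES level within 2-fold of PD was seen at 78 promoters (12.2%), with medians of 134, 37.3 and 26.9 CPM in LZ, PD and ES, and at 9.59% of the other marked promoters. A peak in PD, at least 2-fold above LZ and ES, was seen at 55 promoters (8.61%). Their medians were 71.9, 223 and 25.6 CPM in the same order, so they came from the lower end of LZ and the upper end of PD in this set. Both steps lay within 2-fold at 23 promoters (3.60%), with medians of 60.4, 37.7 and 28.1 CPM, close to the limits of the rule. In the other marked promoters the PD peak was found at 12.3% and both steps within 2-fold at 15.0%. All these shares move with the scaling of PD against LZ and of ES against PD. With median-of-ratios or quantile scaling, all 639 promoters were at least 2-fold lower in ES than in PD. The shapes with ES within 2-fold of PD would then hold none of the set.

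The share of marked promoters that belonged to the set fell steeply with the spermatocyte level. Marked promoters were ranked by PD count and divided into 5 equal groups (quintiles). In the lowest PD quintile (136 to 356 counts), 231 of 752 promoters, or 30.7% (27.4 to 34.2), belonged to the set. The following quintiles held 30.6%, 15.2% and 6.92%, and the highest (1743 to 4549 counts) held 12 of 751, or 1.60% (0.828 to 2.77). Along LZ the share fell from 32.7% (29.4 to 36.2) in the lowest quintile to 5.86% (4.29 to 7.79) in the highest. LZ, PD and ES counts all define the set, so these shares are a description. The highest quintile had a lower share along PD than along LZ, although the lowest 2 PD quintiles hardly differed. Quintiles are ranks and PD varied more than LZ, so steepness per unit of level was not compared. The highest PD quintile had a lower share than the lowest within each of the 5 LZ quintiles. In the highest LZ quintile, 20.9% of the 43 promoters in the lowest PD quintile belonged to the set and 0.559% of the 358 in the highest. In the lowest LZ quintile the shares were 37.0% of 316 and 5.77% of 52.

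Along the 5 PD quintiles, from lowest to highest, the 10th percentile of the ES count of marked promoters was 354, 398, 521, 668 and 850.0. The median was 863, 808, 957, 1181 and 1439, and the 90th percentile was 3155, 2546, 2576, 3566 and 4230, so both dipped in the second quintile before rising. The smallest ES count in a PD quintile was 96 in the lowest, 77 in the next, then 169, 323 and 376. Marked promoters with the most H3K4me3 in PD thus had few of the low ES counts that define the set. Correlations across the 639 promoters were weak, with a Spearman rho of 0.28 between LZ and PD, 0.27 between PD and ES and 0.29 between LZ and ES. In the other marked promoters they were 0.48, 0.17 and 0.12. These coefficients describe promoters of the same 3 libraries, and the limits narrow the range of each count.

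**Figure D4:**
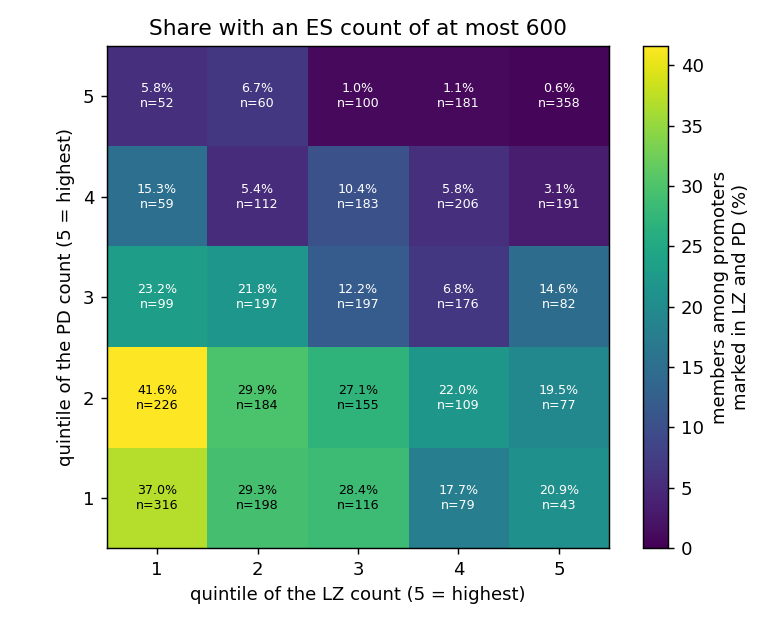
Percentage of marked promoters that belong to the set of 639, for each combination of LZ quintile (horizontal) and PD quintile (vertical), with the number of marked promoters in each cell. The share is highest, at 41.6%, in the lowest LZ and second lowest PD quintile and lowest, at 0.559%, where both are highest.

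Some promoters of the set were among the most strongly marked in spermatocytes. The top 10% of LZ over all listed promoters (at least 422 counts) held 64 of the 639 (10.02%), whose LZ, PD and ES medians were 306, 125 and 26.3 CPM. They were 6.14% of the marked promoters in that top 10%, below the 17.0% among all marked promoters. The top 10% of PD (at least 1537 counts) held 27 (4.23%), with medians of 182, 355 and 26.7 CPM, which were 2.54% of its marked promoters. The top 10% of LZ and that of PD shared 571 promoters, of which 7 (1.23%) belonged to the set. The most marked of the 7 in PD had LZ, PD and ES counts of 500, 2822 and 527, or 302, 585 and 29.3 CPM. The second had 592, 2507 and 565 counts, and the others had 1642 to 1779 counts in PD and 372 to 599 in ES. The PD counts of these 7 were several times the median of the set, while the rule held their ES counts to at most 600. Their ES median was 499 counts, against 462 in the set. The promoter with the highest LZ count of the set had 1269, 1130 and 566 counts, or 767, 234 and 31.5 CPM.

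Single loci show how far the courses diverge. They were ranked by the bound of the exact ratio interval nearest to 1, so their ratios may be too extreme. MSTRG.7367 had LZ, PD and ES counts of 89, 1529 and 329, and its PD level of 317 CPM was 5.89 times the LZ level (interval 4.75 to 7.38). MSTRG.4173 had 120, 1871 and 553 counts, with a PD level 5.35 times that of LZ (4.44 to 6.48). Both were low in LZ, rose to strong marking in PD and lay low again in ES. MSTRG.5896 went the other way, with 621, 157 and 365 counts, and its LZ level of 375 CPM was 11.5 times the PD level (9.67 to 13.8). MSTRG.4843 had 475, 142 and 422 counts, with an LZ level 9.76 times that of PD (8.07 to 11.9). The log2 ratio of PD to LZ under the 5 scalings ran from 2.56 to 3.74 at MSTRG.7367, from 2.42 to 3.60 at MSTRG.4173, from -3.58 to -2.34 at MSTRG.5896 and from -3.34 to -2.10 at MSTRG.4843. The last 2 had lost most of their share by PD, and their ES levels of 20.3 and 23.5 CPM lay within 2-fold of PD.

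The largest falls from PD to ES were at MSTRG.12373 and MSTRG.8339. MSTRG.12373 had the lowest ES count of the set, 77, after 107 in LZ and 744 in PD, so that the PD level of 154 CPM was 36.0 times the ES level of 4.28 CPM (interval 28.5 to 46.1). MSTRG.8339 had 256, 781 and 122 counts, or 155, 162 and 6.78 CPM, and PD stood 23.9 times above ES (19.7 to 29.1). Both ES levels lay below the ES background of 8.39 CPM, so these folds are ratios of counts and depend on how background is treated. The log2 ratio of ES to PD under the 5 scalings ran from -10.28 to -5.13 at MSTRG.12373 and from -10.35 to -4.55 at MSTRG.8339. The 2 promoters with ES above PD were MSTRG.26173, with 108, 137 and 587 counts, and MSTRG.20870, with 95, 149 and 579 counts. Their ES to PD ratios of 1.15 (0.953 to 1.39) and 1.04 (0.869 to 1.26) did not differ from 1 beyond counting error, and both lie near the PD and ES limits of the rule.

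The numbers of the loci are the one property that the rule did not use. They run from 1 to 27289 in the table, and the sources used here do not state whether they follow the genome. When the listed promoters were divided into 20 blocks of 557 by locus number, the set had between 12 and 44 promoters in each block. As a share of marked promoters, the blocks ranged from 9.02% (4.75 to 15.2, loci 6920 to 8278) to 22.9% (16.9 to 30.0, loci 26452 to 27289), around 17.0% in all. Intervals lay off the overall share in 2 of the 20 blocks, both below it. The second was 10.3% (6.59 to 15.2, loci 16653 to 18010). The block with the highest share had 170 marked promoters of 557, and the LZ, PD and ES medians of its listed promoters were 16, 30 and 574 counts. The block with the lowest share had 133 marked promoters and likewise low LZ and PD medians of 20 and 22 counts, with 798 in ES.

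**Figure D5:**
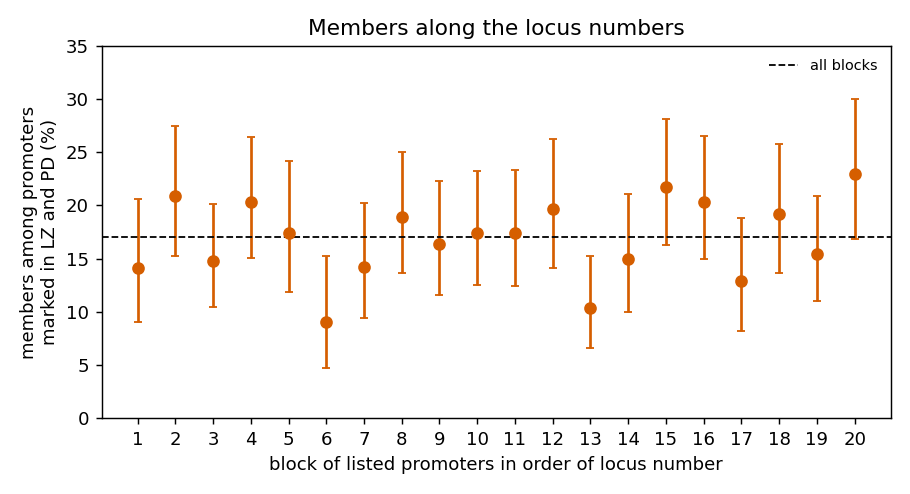
Percentage of marked promoters that belong to the set in 20 blocks of listed promoters in order of locus number, with exact 95% intervals that treat promoters as independent; the dashed line is the share over all blocks. The points lie between 9.02% and 22.9%, and 18 of 20 intervals include the overall 17.0%.

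A promoter of the set was followed by another one about as often as the other marked promoters were. The next listed locus was itself in the set for 42 of the 639 promoters, or 6.57% (4.78 to 8.78), and for 6.48% (5.64 to 7.40) of the other marked promoters. Over all listed promoters outside the set the share was near these, at 5.69% (5.25 to 6.15). The next listed locus was marked for 41.0% of the set and 41.8% of the other marked promoters, against 33.3% of all listed promoters outside the set. The next locus had LZ, PD and ES medians of 92, 114 and 871 counts after a promoter of the set, and 110, 122 and 945 after another marked promoter. Most promoters of the set, 560, had no other member beside them in this order. There were 33 pairs, and the longest run was 4.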

How the data were processed

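H3K4me3 chromatin immunoprecipitation was sequenced in 1 library each of LZ, PD and ES cells. The authors deposited raw counts, not normalized, for 11140 promoters. The submitters' processing notes name Trim Galore, STAR and the build mm10 and give no versions. The sources used here do not state the counting tool, the window's placement, duplicate handling or the choice of promoters. Nuclease sequence preference and window size can move counts between promoters.

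Groups came from the cell type label and columns were matched by the description label. CPM, ratios, exact intervals and ranks were computed with Python 3.11.15, SciPy 1.17.1 and pandas 2.3.3, and TMM factors with edgeR 4.0.16 in R 4.3.3. With 1 library per stage no test was run. Intervals cover at most counting error, since PCR reads without molecular identifiers are not independent. A count of 0 allows 3 counts, or LZ, PD and ES levels of 1.81, 0.622 and 0.167 CPM.

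The members, the comparison classes and the alternatives (scalings, limits, fold, minimum count) were chosen with earlier results of these data known. Named loci are the first 2 in each direction for PD against LZ and ES against PD, by the interval bound nearest to 1. The 7 promoters in the top 10% of both LZ and PD, the quintiles, the ES bins and the shapes were chosen after values were seen.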

Additional observations from a re-analysis of the deposited data

How the results depend on the processing

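No paired analysis was possible because no stage has a replicate, and for that reason none could be left out. All 3 libraries enter the rule, so moving its limits changes the set. It held 94 promoters with an ES maximum of 300 and 1455 with one of 900, 463 with the LZ and PD minimum multiplied by 1.5, and 436 with only those whose counting intervals lay inside the limits, a setting added after seeing the data.

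For PD against LZ, promoters at least 2-fold higher numbered 175 under TMM, 287 under median-of-ratios scaling, 25 with the raised minimum, 4 and 153 with the ES maximum of 300 and 900, 114 and 7 at 1.5-fold and 4-fold, and 33 inside the counting intervals. The lower ones numbered 67, 28 and 105 under TMM, median-of-ratios and quantile scaling, 115 with the raised minimum, 28 and 346 with the ES maximum of 300 and 900, and 40 at 4-fold. No share of all listed promoters stands beside these counts, so they are not read as a result about the set. The median log2 ratio turned to 0.36, 0.82 and 0.0097 under TMM, median-of-ratios and quantile scaling, and was -0.14 with the ES maximum of 900.

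For ES against PD, the lower promoters numbered 94 and 1175 with the ES maximum of 300 and 900 and 355 at 4-fold. The median log2 ratio was -2.61 under TMM, -3.48 under median-of-ratios and -3.20 under quantile scaling, -2.80 after background subtraction, -2.32 with the raised minimum and -2.51 with the ES maximum of 300. Between LZ and ES, those lower in ES numbered 94 and 1364 with the ES maximum of 300 and 900. The median was -2.21, -2.62, -3.24 and -3.06 under the 4 scalings in the same order, -2.63 with the raised minimum, -2.97 and -2.27 with the ES maximum of 300 and 900, and -2.60 inside the counting intervals. Promoters lower in ES than in both spermatocyte libraries numbered 94 and 1122 with the ES maximum of 300 and 900, and 283 at 4-fold. Under the 4 other scalings they numbered 563 to 639. No promoter of the set was 2-fold higher in ES than in PD or LZ under any of the 5 scalings. With library totals, the highest ES level allowed is less than 2-fold above the lowest PD level allowed and below that of LZ. The rule thus excludes such a rise beforehand, and nothing is read from its absence. Other limits, folds and minimums change the counts of lower promoters by construction, and the scalings set another ratio as unchanged. The 4 loci named for PD against LZ kept their direction under the 5 scalings, with the ranges given beside them. MSTRG.26173 and MSTRG.20870, with ES slightly above PD, ranged down to log2 ratios of -1.64 and -1.73. LZ has the smallest total, so at a given CPM its counts are the lowest and its relative counting error the widest.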
